A study of Homo sapiens with 6 samples.

Results

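The histone genes are described here in NOMO-1 cells, an established human line of acute myeloid leukaemia, with and without the RNA methyltransferase METTL16. They were taken from the deposited expression table by name. Every row that begins with HIST and a cluster number, H2AF, H3F3 or H1F was used, which gave 70 of the 15059 genes. Of these, 60 carry a HIST name and stand for the replication-dependent genes, and 10 carry an H2AF, H3F3 or H1F name and stand for the variants. Expression is given as the abundance that RSEM estimated for each gene, called the signal, a value scaled within a library whose exact kind (TPM or FPKM) is not given in the sources used here.

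Total RNA was sequenced after ribosomal RNA depletion in 3 groups of 2 libraries. Control cells (sgNS+EV) held an empty vector and a control guide. Cells of the knockout group (sgMETTL16+EV) held the same empty vector and a guide to METTL16. Rescue cells (sgMETTL16+OE-METTL16) overexpressed METTL16 before the same guide RNA was introduced by viral transduction, so the rescue is a parallel group and not a later time. All groups were kept in puromycin at 2 µg/ml for 1 to 2 weeks. They were infected populations, the guide sequence and the share of edited cells are not given in the sources used here, and nothing states that the 2 libraries of a group are separate cultures. The p-values therefore measure only the spread between these libraries, which may be technical.

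A nucleosome holds a tetramer of H3 and H4 and a pair of H2A and H2B dimers, and linker histone H1 binds the DNA where it enters and leaves. The replication-dependent genes supply these proteins while DNA is copied. Most lie in gene clusters, have no introns, and give messenger RNAs that end not in a poly(A) tail but in a stem-loop, which the stem-loop binding protein SLBP holds from processing to decay. The variants are made through the whole cell cycle from scattered genes, mostly with introns and poly(A) tails, and replace the canonical proteins at particular sites: H2A.Z and macroH2A in place of H2A, H3.3 in place of H3.

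The stem-loop is the feature that sets the messages of the first class apart, and its forms in the members are shown first. The search was for the letters GGC, any base, CTTTT, any base, AG, any base and GCC, in that order, on the sense strand of the GENCODE release 29 transcripts (GRCh38). Of 58721 annotated genes, 40 (0.0681%) held it, and 29 of those 40 were histone genes of the rule: 28 of the 60 HIST genes (46.7%) and 1 of the 10 variants, H2AFX. In 28 HIST genes the annotated model covers the coding part alone, and none of those models reached a stem-loop, which says nothing about the transcripts themselves. The capitals mark the 16 bases of the stem-loop, with 5 bases on each side, for 1 gene of each of the 6 forms found.
HIST1H2BL: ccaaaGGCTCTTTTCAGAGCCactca
HIST1H2BD: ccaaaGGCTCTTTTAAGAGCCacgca
HIST1H2AG: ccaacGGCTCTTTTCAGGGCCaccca
HIST1H4I: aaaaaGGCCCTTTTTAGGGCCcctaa
HIST1H4E: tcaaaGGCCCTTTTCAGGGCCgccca
H2AFX: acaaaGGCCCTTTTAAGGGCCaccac

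The form of HIST1H2BL stood in 15 members, that of HIST1H2BD in 4, that of HIST1H2AG in 2, that of HIST1H4I in 3 and that of HIST1H4E in 4. H2AFX had the sixth form to itself among the members. H2AFX encodes H2AX, the H2A variant phosphorylated beside DNA breaks, and its annotated transcript went on for 821 bases after the stem-loop. HIST1H2BL ended 40 bases after it. HIST1H2BL was the member with the largest fall in the knockout, HIST1H4I had the largest among the H4 genes, and HIST1H4E was among the few that did not pass the test.

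Promoters of 55 members, 49 HIST genes and 6 variants, were matched in RefSeq (GRCh38.p14). Short motifs known from histone promoters were counted from 250 bases before to 50 after the start: CCAAT on both strands, TATAAA on the sense strand, and the octamer ATTTGCAT on both strands, which can share end letters but not hold one another. CCAAT was found in 34.6% of all 35116 promoters and in 41 of the 49 HIST promoters (83.7%). TATAAA was found in 7.33% of all promoters and in 30 HIST promoters (61.2%). The octamer was found in 1.77% of all promoters and in 17 HIST promoters (34.7%). All 17 were H2A or H2B genes, 9 of 14 and 8 of 12, and CCAAT was in each of the 40 H1, H2A, H2B and H3 promoters but in only 1 of 9 H4 promoters. These promoters are not all separate: those of back-to-back genes such as HIST1H2AG and HIST1H2BJ overlap. Copies such as HIST2H4A and HIST2H4B have the same sequence, so some motifs were counted more than once. Among the variants 5 of 6 had CCAAT, 4 had TATAAA and 1, H3F3B, had the octamer. The 250 bases before the start are printed for an H2B gene that fell, an H4 gene that did not pass the test and the variant that rose most, all on the minus strand and read 5′ to 3′ toward the gene. Capitals mark the 3 motifs, which read ATTGG and ATGCAAAT where they lie on the other strand.
HIST1H2BJ, chr6:27132796-27133045: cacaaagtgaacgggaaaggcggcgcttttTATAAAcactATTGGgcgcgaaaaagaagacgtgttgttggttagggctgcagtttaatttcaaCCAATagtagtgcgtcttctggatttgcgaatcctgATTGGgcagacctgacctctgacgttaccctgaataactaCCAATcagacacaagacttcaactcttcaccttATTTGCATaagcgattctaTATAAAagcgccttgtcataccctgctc
HIST1H4D, chr6:26189113-26189362: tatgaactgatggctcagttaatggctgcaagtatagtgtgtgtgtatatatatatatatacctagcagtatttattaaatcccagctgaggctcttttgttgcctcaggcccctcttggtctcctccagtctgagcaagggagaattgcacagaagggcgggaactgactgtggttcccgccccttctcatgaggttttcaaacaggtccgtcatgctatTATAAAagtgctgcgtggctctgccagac
H3F3B, chr17:75779780-75780029: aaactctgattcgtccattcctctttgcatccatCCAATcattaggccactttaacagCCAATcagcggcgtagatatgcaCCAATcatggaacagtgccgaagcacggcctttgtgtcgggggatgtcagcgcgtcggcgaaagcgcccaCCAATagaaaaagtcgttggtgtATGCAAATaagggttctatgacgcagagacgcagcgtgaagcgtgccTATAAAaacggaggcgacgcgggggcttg

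As a check of the labels, METTL16 had 9.89 and 9.63 in control, 6.05 and 5.83 in knockout, and 12.3 and 12.1 in rescue, so that both knockout libraries lay under the other 4. Against control the knockout change was -0.63 in log2 units (limma adjusted p = 4.76e-05), and against knockout the rescue change was 0.93 (limma adjusted p = 3.18e-06). A guide-directed edit need not lower the transcript, and the sources used here do not say if the introduced copy was counted. The replicate called control 2 lay low across genes, with a median log2 signal 0.12 under the mean of the 6 libraries where the others lay between -0.0023 and 0.045. Without it 54 HIST genes fell in knockout, where 52 fell with it. Read totals are not given in the sources used here. The spacing of low values put a signal of 1 at 8.28 to 8.95 reads over 400 nt in the 6 libraries. By that estimate the least covered of 49 tested members with a single transcript, HIST3H3 aside, still had 259 reads in its lowest library. Members with several transcripts have no such estimate.

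In the knockout cells the replication-dependent genes were lower almost throughout, and the variants were not. Of the 59 HIST genes tested, 52 fell, 1 rose and 6 did not pass the test, where 13.5% of the 12734 genes tested fell and 26.2% rose. A gene fell or rose when its limma p, adjusted over all genes tested, was under 0.05. The median log2 change of the HIST genes was -0.40, with quartiles of -0.50 and -0.33, beside 0.067 for all genes. With copies of equal value counted once, 49 of 56 fell and 1 rose, with a median of -0.41. Of the 8 variants tested, 1 fell, 2 rose and 5 did not pass, with a median of 0.067. Without the pseudogene H3F3AP4, 1 of 7 fell, 2 rose and 4 did not pass, with a median of 0.081. Both knockout libraries lay below both control libraries in 53 of the 59 HIST genes and in 1 of the 8 variants, against 25.1% of all genes. The split of all genes moved with the scaling: after quantile normalization 25.0% fell and 24.7% rose, and after median scaling 24.8% and 24.4%. In a bulk culture, fewer cells in the phase that makes these messages and less message per cell cannot be told apart. The plot of each member by library shows the 2 knockout points under the others in nearly every HIST column.

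**Figure D1:**
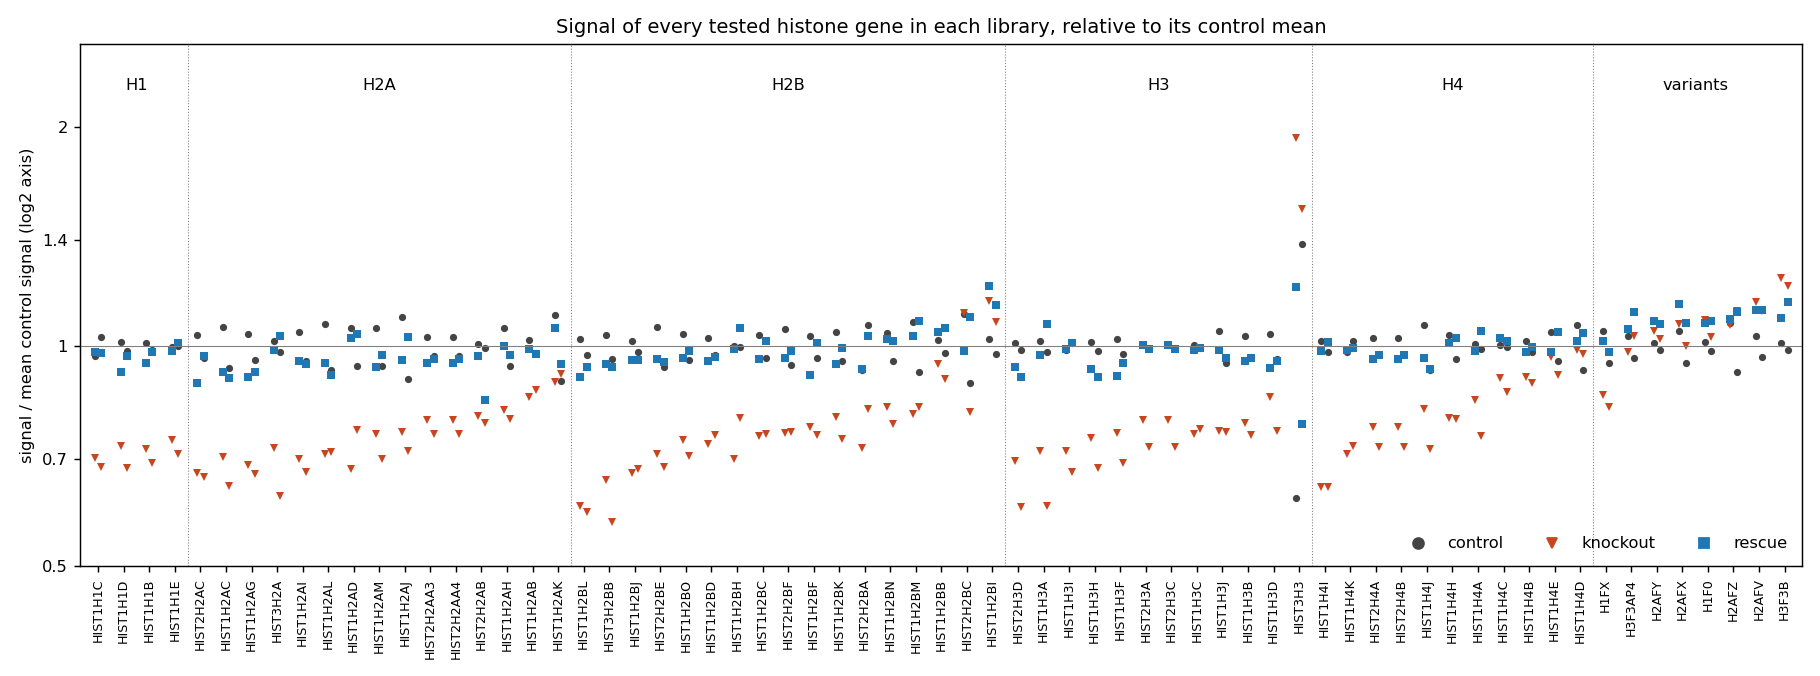
Signal of each tested histone gene (columns, by type and then by log2 change) in each of the 6 libraries, divided by its mean over the 2 control libraries, on a log2 axis. The knockout points (triangles) lie below the control (circles) and rescue points (squares) in most HIST columns, and those of HIST3H3 and of the variants other than H1FX do not.

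Summed over the 60 HIST genes, the signal was 29475 and 27884 in control, 22053 and 21205 in knockout, and 27702 and 28075 in rescue. The knockout mean, 21629 ± 600.03 (SD, n = 2), was 0.754 of the control mean of 28679.6 ± 1125, and the rescue mean of 27888 ± 264 was 0.972 of it. The variants summed to 1036 and 956 in control, 1035 and 1051 in knockout, and 1070.2 and 1098 in rescue, or 1.05 and 1.09 of the control mean in knockout and rescue. Of this variant signal, H3F3AP4 held 396 and 369 in control, 376 and 396 in knockout, and 404 and 427 in rescue. H3F3AP4 is a processed pseudogene that shares all of its 51-base stretches with H3F3A. That gene had no row among those that begin with H3F3, so the variant sum and the ratio to it lack H3F3A. HIST signal over variant signal was thus 28.5 and 29.2 in control, 21.3 and 20.2 in knockout, and 25.9 and 25.6 in rescue. In each of these sums except that of the variants the knockout libraries stood below the control libraries and the rescue libraries. As a share of all signal the HIST genes made up 4.41% and 4.50% in control, 3.40% and 3.55% in knockout, and 4.07% and 4.12% in rescue. With 2 libraries against 2, an exact two-sided permutation test of a sum cannot give a p under 0.333, so these sums carry no test of their own.

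**Figure D2:**
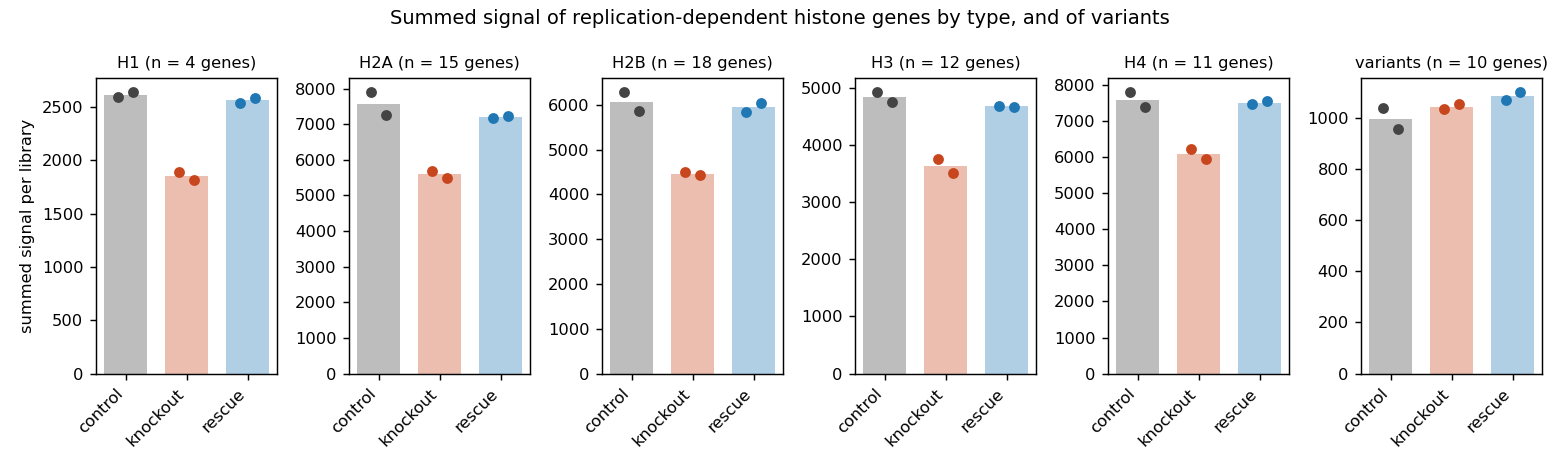
Summed signal per library (vertical axis, linear from 0) of the replication-dependent genes of each histone type and of the variants, with 1 panel per type. Points are the 2 libraries of a group and bars their mean. The variant sum includes the pseudogene H3F3AP4. In the 5 panels of replication-dependent genes both knockout points lie below the 4 others, and in the variant panel they do not.

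The 4 linker histone genes, which supply the H1 that closes the nucleosome, all fell, with a median of -0.50. HIST1H1C had a signal of 957 and 1014 in control, 693 and 672 in knockout, and 969 and 967 in rescue, and its knockout log2 change was -0.53 (limma adjusted p = 4.98e-06). HIST1H1D had 307 and 299 in control, 221 and 206 in knockout, and 279 and 294 in rescue, and its knockout log2 change was -0.50. HIST1H1B had 565 and 553 in control, 404 and 387 in knockout, and 531 and 549 in rescue, and its knockout log2 change was -0.50. In these 3 genes the knockout libraries stood apart from the other 4 by more than any spread within a group. HIST1H1E had 768 and 771 in control, 573 and 548 in knockout, and 759 and 779 in rescue, and its knockout log2 change was -0.46. The 4 changes ran from -0.53 to -0.46, a narrower range than in the other types, which hold more genes. Their summed signal in knockout was 0.708 of control.

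Among the 15 H2A genes, 14 fell and 1 did not pass, with a median of -0.45. H2A pairs with H2B, and most of its genes lie close to an H2B gene. The largest fall was that of HIST2H2AC, with 569 and 530.0 in control, 369 and 364 in knockout, and 490.4 and 533 in rescue, and its knockout log2 change was -0.58 (limma adjusted p = 4.66e-06). HIST1H2AC had 371 and 326 in control, 245 and 224 in knockout, and 321 and 315 in rescue, and its knockout log2 change was -0.57. HIST1H2AG had 879.8 and 809.9 in control, 581 and 565 in knockout, and 767 and 780.0 in rescue, and its knockout log2 change was -0.56. In all 3 the knockout libraries held 0.666 to 0.678 of the control signal, and in HIST1H2AC and HIST1H2AG the rescue libraries remained below both control libraries. HIST3H2A, the H2A gene of the small cluster on chromosome 1, was less abundant, with 29.9 and 29.0 in control, 21.4 and 18.4 in knockout, and 29.2 and 30.5 in rescue, and its knockout log2 change was -0.55. HIST1H2AI had 978 and 892 in control, 655 and 628 in knockout, and 894 and 886 in rescue, and its knockout log2 change was -0.54. HIST1H2AL had 164 and 142 in control, 109 and 109.9 in knockout, and 145 and 140.1 in rescue, and its knockout log2 change was -0.48. The knockout libraries were again the lowest pair in each. HIST1H2AD had 266 and 236 in control, 171 and 193 in knockout, and 258 and 261 in rescue, and its knockout log2 change was -0.46. HIST1H2AM had 662 and 588 in control, 475 and 438 in knockout, and 585 and 608 in rescue, and its knockout log2 change was -0.45. HIST1H2AJ had 291 and 239.7 in control, 203 and 191 in knockout, and 254 and 274 in rescue, and its knockout log2 change was -0.42. HIST1H2AJ showed the widest relative spread between its control libraries of these 3, and in all 3 both knockout libraries lay below the other 4. HIST2H2AA3 and HIST2H2AA4 are copies that carried identical values, so their levels cannot be told apart. Each of these rows held 1335 and 1259 in control, 1029 and 984 in knockout, and 1233 and 1247 in rescue. The knockout log2 change of each was -0.36. HIST2H2AB had 396 and 391 in control, 315 and 309 in knockout, and 381 and 331 in rescue, and its knockout log2 change was -0.33. HIST1H2AH had 393 and 349 in control, 303 and 295 in knockout, and 372 and 361 in rescue, and its knockout log2 change was -0.31. The copies were the most abundant H2A rows, and both knockout libraries lay below both controls in these genes too. HIST1H2AB fell least, with 179.8 and 173 in control, 150.3 and 154 in knockout, and 175 and 172 in rescue, and its knockout log2 change was -0.21 (limma adjusted p = 0.00521, and 0.0503 without knockout replicate 1). HIST1H2AK did not pass, with 38.9 and 31.6 in control, 31.5 and 32.3 in knockout, and 37.4 and 33.4 in rescue, and its knockout log2 change was -0.13 (limma adjusted p = 0.242). Its lower control library lay between the knockout libraries, and without control replicate 2 it passed at a limma adjusted p of 0.0283.

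Of the 18 H2B genes, 17 were tested, of which 14 fell and 3 did not pass, with a median of -0.39. The largest fall of any member was that of HIST1H2BL, with 743 and 707 in control, 438 and 429.5 in knockout, and 657 and 680.2 in rescue, and its knockout log2 change was -0.74 (SE 0.0513, limma adjusted p = 2.15e-07). HIST3H2BB, the H2B gene of the HIST3 cluster, had 153 and 142 in control, 97.0 and 84.9 in knockout, and 139.8 and 138 in rescue, and its knockout log2 change was -0.70. HIST1H2BJ, whose promoter is printed above, had 705 and 682 in control, 466 and 470.5 in knockout, and 664 and 665 in rescue, and its knockout log2 change was -0.57. In these 3 the rescue libraries rose well above knockout and stayed below both control libraries. HIST2H2BE had 190.3 and 168 in control, 127 and 122 in knockout, and 172 and 171 in rescue, and its knockout log2 change was -0.51. HIST1H2BO had 782 and 720.0 in control, 559 and 531 in knockout, and 724 and 739 in rescue, and its knockout log2 change was -0.46. HIST1H2BD had 317 and 299.7 in control, 226 and 233 in knockout, and 294 and 298 in rescue, and its knockout log2 change was -0.42. Each showed the same order, with knockout lowest. HIST1H2BH had 327 and 326 in control, 229 and 260.4 in knockout, and 324 and 346 in rescue, and its knockout log2 change was -0.42. HIST1H2BC, the most abundant H2B gene, had 933 and 868 in control, 678 and 684 in knockout, and 866 and 917 in rescue, and its knockout log2 change was -0.40. HIST2H2BF had 373 and 333 in control, 269 and 269.6 in knockout, and 341 and 348 in rescue, and its knockout log2 change was -0.39. None of these had overlapping control and knockout libraries. HIST1H2BF had 358 and 334 in control, 269 and 262 in knockout, and 316 and 350.2 in rescue, and its knockout log2 change was -0.38. HIST1H2BK had 499 and 455 in control, 382 and 356 in knockout, and 451 and 474 in rescue, and its knockout log2 change was -0.37. HIST2H2BA, a transcribed pseudogene, had 58.1 and 67.1 in control, 45.4 and 51.4 in knockout, and 58.3 and 64.7 in rescue, and its knockout log2 change was -0.36. The fall of this pseudogene was lost without control replicate 2, at a limma adjusted p of 0.0659. HIST1H2BN had 114 and 105 in control, 90.2 and 85.5 in knockout, and 112 and 111 in rescue, and its knockout log2 change was -0.31. HIST1H2BM had 379 and 324 in control, 284 and 291 in knockout, and 363 and 381 in rescue, and its knockout log2 change was -0.29 (-0.17 without control replicate 1). These were the smallest falls among the H2B genes that passed. HIST1H2BB did not pass, with 269 and 258 in control, 249 and 237 in knockout, and 276 and 279 in rescue, and its knockout log2 change was -0.11 (limma adjusted p = 0.0918, and 0.0464 without control replicate 2). HIST2H2BC, also a transcribed pseudogene, had 10.3 and 8.28 in control, 10.3 and 7.56 in knockout, and 9.17 and 10.2 in rescue, and its knockout log2 change was -0.057. HIST1H2BI had 61.2 and 58.4 in control, 69.0 and 64.5 in knockout, and 72.3 and 68.2 in rescue, and its knockout log2 change was 0.16 (limma adjusted p = 0.0539, and 0.0439 without control replicate 1). In HIST1H2BI both knockout libraries lay above both control libraries, unlike any other abundant HIST gene, and the rescue libraries lay above control as well. HIST1H2BE, at a signal of 0.152 to 0.78 in the 6 libraries, was too low to be tested.

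Among the 12 H3 genes, 11 fell and 1 rose, with a median of -0.40. H3 forms the core tetramer with H4 and carries many of the modified lysines of chromatin. HIST2H3D fell most, with 146 and 143 in control, 100.4 and 87.0 in knockout, and 136 and 131 in rescue, and its knockout log2 change was -0.62 (limma adjusted p = 8.18e-06). Of its 51-base stretches, 57.1% are shared with HIST2H3DP1, so its own level is uncertain. HIST1H3A had 71.9 and 69.4 in control, 50.7 and 42.7 in knockout, and 68.8 and 75.9 in rescue, and its knockout log2 change was -0.59. HIST1H3I had 89.5 and 91.6 in control, 65.1 and 60.9 in knockout, and 89.7 and 91.5 in rescue, and its knockout log2 change was -0.52. Rescue met the control range in HIST1H3A and HIST1H3I and lay under it in HIST2H3D. HIST1H3H had 784 and 762 in control, 579 and 526 in knockout, and 719 and 702 in rescue, and its knockout log2 change was -0.49. HIST1H3F had 312 and 298 in control, 232 and 211 in knockout, and 277 and 289 in rescue, and its knockout log2 change was -0.46. HIST1H3C had 319 and 316 in control, 241 and 244 in knockout, and 314 and 316 in rescue, and its knockout log2 change was -0.39. Libraries of a group agreed closely in HIST1H3C. HIST2H3A and HIST2H3C, copies of identical value, stood at 805 and 797 in control, 634 and 583 in knockout, and 805 and 795 in rescue, and their knockout log2 change was -0.40. HIST1H3J had 195 and 176 in control, 142 and 142 in knockout, and 183 and 179 in rescue, and its knockout log2 change was -0.38. HIST1H3B, the most abundant H3 gene, had 1118 and 1049 in control, 851 and 819.9 in knockout, and 1034 and 1045 in rescue, and its knockout log2 change was -0.37. Their falls were close to the median of the type. HIST1H3D fell least, with 275 and 253 in control, 225 and 202 in knockout, and 246 and 252 in rescue, and its knockout log2 change was -0.30 (limma adjusted p = 0.00148). All 51-base stretches of HIST1H3D, and 98.0% of those of HIST1H2AD, are shared with an annotated gene that overlaps both on the same strand, AL031777.3, so their own levels are uncertain. HIST3H3, which encodes an H3 known mainly from testis, was the 1 HIST gene that rose. Its signal was 0.447 and 0.995 in control, 1.39 and 1.11 in knockout, and 0.869 and 0.565 in rescue, which by the estimate above rests on 5 to 14 reads a library. It passed the filter on low values only through the knockout libraries and so had to differ, and its change of 0.40 (limma adjusted p = 0.0458) was lost under 6 of the alternatives, among them no filter, at 0.0501.

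The 11 H4 genes, which all encode the same protein, held both large falls and genes that hardly differed: 9 fell and 2 did not pass, with a median of -0.33. HIST1H4I had 427 and 412 in control, 269 and 269 in knockout, and 413 and 425 in rescue, and its knockout log2 change was -0.64 (limma adjusted p = 5.66e-07). HIST1H4K had 913 and 943 in control, 662 and 677 in knockout, and 917 and 925 in rescue, and its knockout log2 change was -0.47. HIST2H4A and HIST2H4B, copies of identical value, stood at 992 and 939 in control, 749 and 704 in knockout, and 928 and 939 in rescue, and their knockout log2 change was -0.41. The libraries of HIST1H4I in rescue met its control range. HIST1H4J, which shares 81.1% of its 51-base stretches with HIST1H4K, had 1063 and 923 in control, 816 and 719 in knockout, and 957 and 925 in rescue, and its knockout log2 change was -0.37 (-0.15 after quantile normalization, where its limma adjusted p was 0.101). HIST1H4H had 710.2 and 659 in control, 545 and 544 in knockout, and 691 and 704 in rescue, and its knockout log2 change was -0.33. HIST1H4A had 169 and 166 in control, 142 and 127 in knockout, and 165 and 177 in rescue, and its knockout log2 change was -0.32. Knockout was the lowest pair in all of these. HIST1H4C had 845 and 839.9 in control, 763 and 729.7 in knockout, and 864 and 856 in rescue, and its knockout log2 change was -0.17 (limma adjusted p = 0.0131). HIST1H4B had 722 and 696 in control, 644 and 632 in knockout, and 697 and 707 in rescue, and its knockout log2 change was -0.15 (limma adjusted p = 0.026). The call of HIST1H4B was lost without knockout replicate 1 or 2 (0.0732 and 0.136) or rescue replicate 1 or 2 (0.0639 and 0.0646), and that of HIST1H4C without knockout replicate 2 (0.118). The knockout libraries lay below the controls in both genes, at 0.886 and 0.900 of the control mean. HIST1H4E had 677 and 617 in control, 626 and 591 in knockout, and 636 and 678 in rescue, and its knockout log2 change was -0.087. HIST1H4D had 287 and 249 in control, 265 and 262 in knockout, and 272 and 279.6 in rescue, and its knockout log2 change was -0.021. In these 2 genes, both of which did not pass (limma adjusted p = 0.262 and 0.814), knockout and control libraries overlapped, and HIST1H4D passed at 0.0495 without control replicate 2. The sign of HIST1H4B, HIST1H4C and HIST1H4E turned after quantile normalization, to 0.077, 0.028 and 0.14. Summed over the H4 genes the knockout held 0.803 of the control signal, beside 0.708 for H1, 0.738 for H2A, 0.736 for H2B and 0.750 for H3.

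The variants did not move as a class. H3F3B, which encodes the replication-independent H3.3, rose in knockout from 75.3 and 73.7 to 92.5 and 90.2, with 81.4 and 85.7 in rescue, a log2 change of 0.29 (SE 0.0554, limma adjusted p = 0.001). All 4 libraries with the METTL16 guide lay above both control libraries. The other H3.3 gene, H3F3A, had no row among those that begin with H3F3. The processed pseudogene H3F3AP4, which shares all of its 51-base stretches with H3F3A, had 396 and 369 in control, 376 and 396 in knockout, and 404 and 427 in rescue. The knockout log2 change of H3F3AP4 was 0.013, with overlapping control and knockout libraries. H3F3C was too low to be tested, at 0.13 to 0.319. Of the H2A.Z genes, H2AFZ had 247 and 211 in control, 245 and 256 in knockout, and 249 and 255 in rescue, and its knockout log2 change was 0.13 (limma adjusted p = 0.122). Its change was 0.25 without control replicate 1 (limma adjusted p = 0.00755), and with the replicate number as a block its limma adjusted p was 0.0442. H2AFV, the gene of the second H2A.Z protein, had 35.6 and 33.3 in control, 39.6 and 38.6 in knockout, and 38.7 and 38.7 in rescue, and its knockout log2 change was 0.18 (limma adjusted p = 0.0338). That rise was lost under 8 of the alternatives, among them without control replicate 2, at 0.0601, and median scaling, at 0.0513. H2AFY, which encodes macroH2A, known from the inactive X chromosome, had 129 and 126 in control, 134 and 130.4 in knockout, and 138 and 137 in rescue, and its knockout log2 change was 0.052. H2AFX, whose message carries the stem-loop, had 36.0 and 32.6 in control, 36.8 and 34.4 in knockout, and 39.3 and 36.9 in rescue, and its knockout log2 change was 0.053. Neither passed the test (limma adjusted p = 0.453 and 0.581), and the change of H2AFX had an SE of 0.0697 beside a HIST median of -0.40. Of the linker variants, H1F0, known from cells that have stopped dividing, had 58.1 and 56.5 in control, 62.3 and 59.1 in knockout, and 61.6 and 62.2 in rescue, and its knockout log2 change was 0.081 and did not pass (limma adjusted p = 0.282). H1FX was the 1 variant that fell, with 59.1 and 53.4 in control, 48.2 and 46.5 in knockout, and 57.3 and 55.3 in rescue, and its knockout log2 change was -0.24 (limma adjusted p = 0.0081, and 0.0569 without knockout replicate 2). Both knockout libraries of H1FX lay below the other 4, and its change was smaller than that of each H1 gene of the HIST clusters. H1FX-AS1, an antisense transcript that the rule also picks up, was too low to be tested, at 0.247 to 0.405.

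In the rescue cells the replication-dependent genes were higher than in knockout. Of 59, 53 rose, 0 fell (1 at an unadjusted limma p under 0.05) and 6 did not pass, where 15.6% of all genes rose and 15.9% fell, and their median log2 change was 0.37 beside -0.012 for all genes. This comparison shares the knockout libraries with the first, so the 2 are not independent of each other. Both rescue libraries lay above both knockout libraries in 56 of the 59 HIST genes and 4 of the 8 variants, against 34.7% of all genes. By type 4 of 4 H1, 14 of 15 H2A, 15 of 17 H2B, 11 of 12 H3 and 9 of 11 H4 genes rose, with medians of 0.45, 0.39, 0.37, 0.37 and 0.35. HIST1H4I changed by 0.64 (limma adjusted p = 1.11e-06), HIST1H3A by 0.62 (limma adjusted p = 6.10e-05) and HIST1H2BL by 0.62 (limma adjusted p = 1.68e-06), the highest of the 59. Without single libraries the calls of HIST2H2AB, HIST1H3D, HIST1H2AB, HIST1H4B, HIST1H4C and HIST1H2BB were lost in some fits, at limma adjusted p from 0.0553 to 0.522. After quantile normalization the rises of HIST1H3H (0.12, limma adjusted p = 0.0515), HIST2H2AA3 and HIST2H2AA4 (0.11, limma adjusted p = 0.0808), HIST1H4J (0.077, limma adjusted p = 0.388), HIST2H2BA (0.33, limma adjusted p = 0.0676) and HIST2H2AB (0.17, limma adjusted p = 0.0907) no longer passed. In that scaling the change of 19 of the 53 HIST genes called in knockout shrank by over 1.5 times or turned sign, 18 of them with a control mean over 400, as did 23 of the 53 in rescue against knockout, 22 of them over 400. Of the 59 tested HIST genes 27 have a control mean over 400. The 6 that did not pass were HIST1H2AK, HIST2H2BC, HIST1H2BI, HIST1H4E, HIST1H4D and HIST3H3, and HIST1H2BB, which had not passed in knockout, rose by 0.19 (limma adjusted p = 0.0126). Among the variants H1FX rose by 0.25 (limma adjusted p = 0.00955, and 0.0663 without knockout replicate 2 or 0.0976 without rescue replicate 1) and the other 7 did not pass, with H3F3B at -0.13 (limma adjusted p = 0.0959, and 0.0436 and 0.0438 without control replicate 1 or 2).

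Between rescue and control no histone gene passed the test in limma: 0 of 59 HIST genes and 0 of 8 variants were called in either direction, where 0.055% of all genes fell and 0.228% rose (0.11% and 0.149% after quantile normalization, 0.0% and 0.0628% after median scaling). At an unadjusted p under 0.05 the same fit gave 4 HIST genes lower and 1 higher in rescue, and 3 variants higher. The share of all genes at that unadjusted threshold was not counted, so these numbers have no background to stand beside. The median log2 difference was -0.025 for the HIST genes, 0.13 for the variants and 0.061 for all genes. The 2 groups of libraries overlapped in 38 of the 59 HIST genes, rescue lay below control in 18 and above it in 3. The same split was not counted over all genes, so nothing about the HIST genes is read from it. HIST2H2AB, at -0.14 (limma adjusted p = 0.399), and HIST1H2BI, at 0.23 (limma adjusted p = 0.151), marked the ends of the range. A p over the threshold does not show that rescue and control were equal, and with a spread like this the standard error of the HIST1H2BL difference was 0.0513 on the log2 scale.

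By position, the HIST1 cluster on chromosome 6 held 44 members, HIST2 on chromosome 1 held 13 and HIST3, also on chromosome 1, held 3. In knockout 38 of 43 tested HIST1 genes fell with a median of -0.42, 12 of 13 HIST2 genes with -0.40 and 2 of 3 HIST3 genes with -0.55. The falls were thus not confined to 1 cluster. The HIST1 genes lie in 2 blocks (GRCh38), from 26020490 to 26285638 and from 27125897 to 27893843, and this division was made after the values were seen. In the first block 19 of 23 tested genes fell, with a median of -0.38, and in the second 19 of 20, with -0.47. The H4 genes differed most between blocks: 4 of 6 fell in the first, with a median of -0.16, and 3 of 3 in the second, with -0.47. In the second block HIST1H4K, whose own value is that median, shares all of its 51-base stretches with HIST1H4J. These genes are thus not separate measurements, and HIST1H4J changed by only -0.15 after quantile normalization. HIST1H4B, HIST1H4C, HIST1H4D and HIST1H4E all lie in the first block, where neighbours of other types such as HIST1H1C, at -0.53, and HIST1H1E, at -0.46, changed more. The difference between blocks was not tested.

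**Figure D3:**
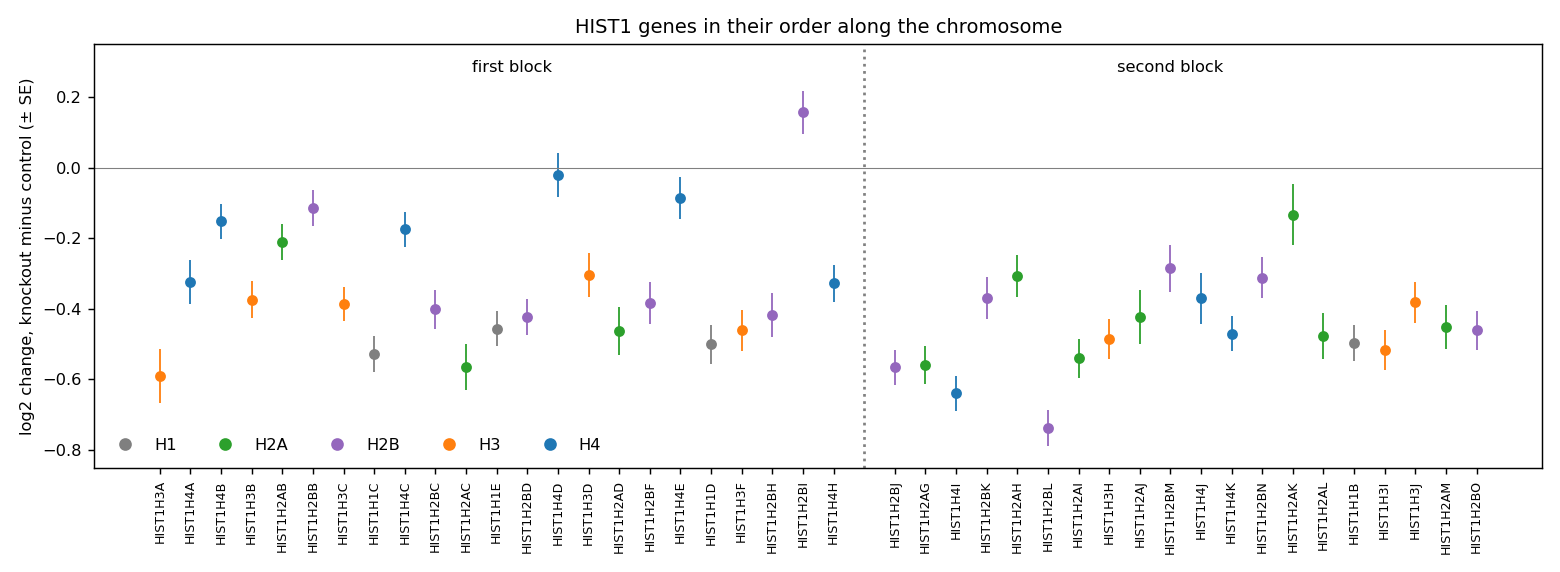
Log2 change in knockout against control with its standard error (vertical axis) for the 43 tested HIST1 genes, in their order along chromosome 6 and coloured by histone type. Points lie below 0 along both blocks except HIST1H2BI, and the points nearest 0 are mostly H4 and H2B genes of the first block.

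Many H2A and H2B genes start back to back, with a short stretch between them. By their GENCODE starts, 10 such pairs under 1000 bases apart were among the tested members. HIST1H2AG and HIST1H2BJ, 292 bases apart, changed by -0.56 and -0.57. HIST2H2AC and HIST2H2BE, 323 bases apart, changed by -0.58 and -0.51. HIST1H2AI and HIST1H2BL, 268 bases apart, changed by -0.54 and -0.74. HIST1H2BO and HIST1H2AM, 314 bases apart, changed by -0.46 and -0.45, and HIST1H3J, whose model overlaps HIST1H2AM, also starts 357 bases from HIST1H2BO. Partners fell together in 9 of these 10 H2A with H2B pairs, and the exception among them was the pseudogene HIST2H2BC beside HIST2H2AA4. HIST1H2BN and HIST1H2AK also lie back to back by their RefSeq promoters, but not by their GENCODE starts, and are not in the count. HIST1H2BN fell, at -0.31, and HIST1H2AK did not pass, at -0.13. Paired or not, 14 of 15 H2A and 14 of 17 H2B genes tested fell, so the count says little about pairing. H2A and H2B genes with the octamer in the promoter fell in 16 of 17 cases, with a median of -0.45, and those without in 8 of 9, with -0.42. Some of these genes share 1 octamer between back-to-back promoters. HIST genes whose models held the stem-loop fell in 24 of 27 cases and those with coding-only models in 24 of 28, with medians of -0.40 and -0.41. The 8 HIST genes known to give polyadenylated messages as well, HIST1H1C, HIST1H2AC, HIST1H2BC, HIST1H2BD, HIST1H2BJ, HIST1H2BK, HIST1H4H and HIST2H2BE, all fell, with a median of -0.47, beside 44 of 51 and -0.40 for the rest. By shared sequence, 31 of 38 genes with at least 90% of their 51-base stretches in no other gene fell, with a median of -0.39, and 16 of 16 with under 50%, with -0.40. The own levels of the latter are uncertain, among them HIST2H3D (19.9% in no other gene), HIST1H2AJ (16.3%), HIST1H2AM (13.7%) and HIST1H4K (0.0%). Across the 59 HIST genes, which share libraries and are not independent, Spearman's rho of the change was -0.13 with the control level, 0.12 with the unique share and -0.24 with transcript length.

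The genes that process and transcribe histone messages were listed beside them, with those of histone chaperones and of DNA replication. Of 26 tested genes of histone message processing and transcription, 1 fell and 3 rose in knockout, with a median of 0.052. SLBP had 33.4 and 30.7 in control, 34.1 and 33.0 in knockout, and 36.4 and 37.6 in rescue, and its knockout log2 change was 0.065, and NPAT, the coactivator at the histone loci, had 9.67 and 8.69 in control, 8.33 and 8.71 in knockout, and 8.62 and 9.55 in rescue, and its knockout log2 change was -0.095. Neither passed the test (limma adjusted p = 0.457 and 0.424). ZCCHC6 (TUT7), which adds uridines to RNA ends, rose by 0.52 (limma adjusted p = 2.15e-04), from 9.46 and 8.71 to 13.6 and 13.3. NCBP2, a subunit of the cap-binding complex, changed by -0.34 (limma adjusted p = 9.70e-04), CLP1, a factor of 3′ end cleavage, by 0.37 (limma adjusted p = 0.00224), and UPF1, a helicase of message decay, by 0.26 (limma adjusted p = 0.0119). Of 29 chaperone and exchange genes 10 fell and 6 rose, with a median of 0.0061. ATRX, which deposits H3.3 with DAXX, changed by -0.49 (limma adjusted p = 1.32e-04), NAP1L1, a carrier of H2A and H2B, by -0.33 (limma adjusted p = 3.52e-04), RUVBL2, an ATPase of the H2A.Z exchange complexes, by -0.37 (limma adjusted p = 8.79e-04), and ZNHIT1, another part of them, by 0.34 (limma adjusted p = 0.00127). Of 45 S phase replication factors 12 fell and 5 rose, with a median of -0.012. The counts of these 3 lists stand beside 13.5% of all genes that fell and 26.2% that rose. MCM4, part of the replicative helicase, changed by -0.44 (limma adjusted p = 5.85e-05), RFC1, of the clamp loader, by -0.39 (limma adjusted p = 4.83e-04), PRIM1, of the primase, by -0.35 (limma adjusted p = 7.87e-04), and the flap nuclease FEN1 by 0.30 (limma adjusted p = 0.00191). No list other than the HIST genes thus had most of its members fallen. The chaperone and replication lists still had larger shares fallen in this fit than the 13.5% of all genes. SLBP and NPAT were named after their values were seen.

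In rescue against knockout 2 of the 26 processing and transcription genes rose and 2 fell, 10 of the 29 chaperone genes rose and 1 fell, and 17 of the 45 replication factors rose and 0 fell (0 also at an unadjusted limma p under 0.05), with medians of 0.035, 0.056 and 0.12, beside 15.6% of all genes that rose and 15.9% that fell. MCM4 rose by 0.52 (limma adjusted p = 2.39e-05), ATRX by 0.44 (limma adjusted p = 5.18e-04) and NCBP2 by 0.46 (limma adjusted p = 1.57e-04). The counts of these lists moved by more than 1.5 times with the scaling or without single libraries: in knockout the replication factors that fell numbered 5 to 19, the chaperone genes 4 to 13 and the processing genes 1 to 8. Without knockout replicate 1 or 2 the replication factors that fell were 7 and 5 and the chaperone genes 4 and 5. Without control replicate 1 or without either rescue replicate the replication factors that fell were 7, and without control replicate 2 the processing genes that fell were 4. Chaperone genes that rose were 10 without control replicate 1, 3 without control replicate 2 or either rescue replicate, and 1 without either knockout replicate. Replication factors that rose were 3 without control replicate 2 or either rescue replicate and 1 without knockout replicate 1, and processing genes that rose were 5 without control replicate 1. In rescue against knockout the processing genes that rose were 7 without either control replicate and 1 without any of the others, those that fell 1 without any knockout or rescue replicate. Chaperone genes that fell were 4 without either control replicate and 0 without knockout replicate 1 or either rescue replicate, and the replication factors that rose were 11 without knockout replicate 2.

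**Figure D4:**
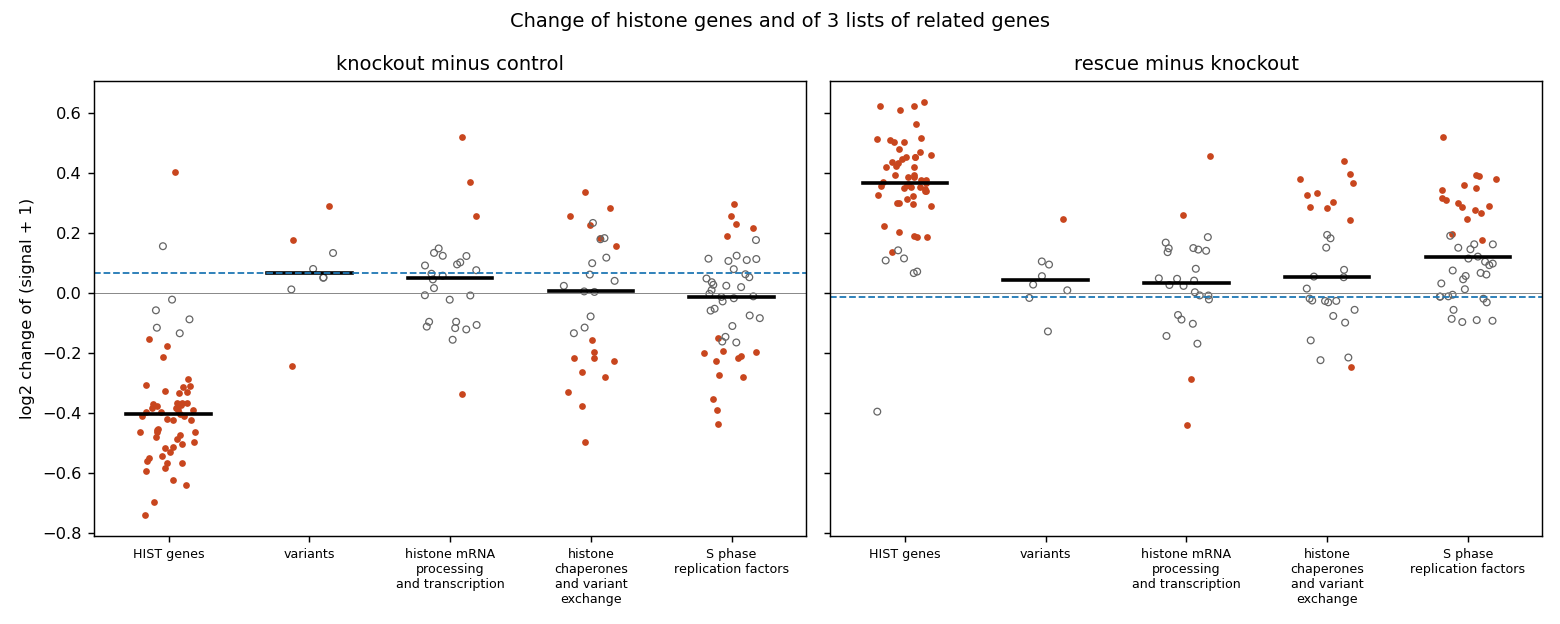
Log2 change of each tested gene (points, spread sideways at random) in the HIST genes, the variants and 3 lists of related genes, for knockout minus control and rescue minus knockout. Filled points passed the test, black bars are medians of a list and the dashed line is the median of all genes. The HIST medians are -0.40 and 0.37, and the medians of the other sets run from -0.012 to 0.12.

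Marker genes moved between the groups as well. Of 8 myeloid markers 6 were analysed (not MPO or CD14), and their summed signal was 157 to 168 in control, 262 to 270.2 in knockout and 199 to 204 in rescue. In knockout 5 of the 6 rose and 1 did not pass, where 26.2% of all genes tested rose. The log2 changes of the 6 ran from -0.095 to 1.42, with a median of 0.50. Among those that rose was LYZ, the lysozyme of monocytes, from 30.9 and 31.1 to 81.9 and 87.2. Of 6 lymphoid markers 3 were analysed, at 113 to 129.8 in control, 151 to 157 in knockout and 127 to 128 in rescue, nearly all of it NKG7. Of the 5 erythroid markers 0 were analysed here, and 2 of 6 epithelial or kidney markers were and summed to 0.744 to 1.34 in any library. The part of the myeloid change in the fall of the histone genes was not tested.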

How the data were processed

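Total RNA of NOMO-1 cells was sequenced in 6 libraries. Per the submitters' processing notes, STAR and RSEM were used with GRCh38, and versions are not given there. The deposited table holds 1 signal value per gene and library, an RSEM abundance that the authors made, and it was used as deposited. The labels describe ribosomal RNA depletion followed by a stranded kit, so messages without a poly(A) tail are included. Whether RSEM split reads between near-identical genes is not given in the sources used here, and 3 pairs of members carried identical values. Both rows of each pair were kept in counts and sums unless stated otherwise.

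The values were taken as log2(signal + 1), which understates changes of low genes. A gene was tested if 2 or more libraries had a signal of 1 or more (12734 tested, 2325 left out). limma 3.58.1 (R 4.3.3) was fitted with a trend to 3 groups (3 residual degrees of freedom), and p, two-sided, was adjusted by Benjamini-Hochberg with a threshold of 0.05. The fit was tested on simulated data. Stem-loops, shared 51-base stretches and coordinates came from GENCODE release 29, and promoters from RefSeq. Reads per signal were estimated from the spacing of low values, where 74.3% to 87.5% lay within 0.15 of a whole number at the best step, chosen on the same values. Tables and plots were made in Python 3.11.15 with pandas 2.3.3, numpy 2.4.6 and matplotlib 3.10.9.

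Members with a mean of at least 5 in any group are named with all values, others by range. Related lists give up to 4 genes with the smallest p in knockout. The members, lists and alternatives were chosen with earlier results of these data known.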

Additional observations from a re-analysis of the deposited data

How the results depend on the processing

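The main counts moved little. HIST genes that fell in knockout numbered 50 to 54 under other pseudocounts, filters, scalings and fits, and 50 to 54 without single libraries, and 47 of the 52 fell in every setting run. HIST genes that rose in rescue against knockout numbered 45 to 53, and 48 to 52 without single libraries, and 42 of the 53 rose in every setting run. The median HIST change in knockout was -0.33 after quantile normalization and -0.48 after median scaling, and in rescue against knockout 0.23 after quantile normalization. HIST genes risen in knockout were 0 with a pseudocount of 0.1, no filter, median scaling or no trend, 2 after quantile normalization, and 0 to 1 without single libraries. Variants risen in knockout were 1 after median scaling, with only 2 groups in the fit or with no trend, and 1 to 3 without single libraries, and variants fallen were 0 to 1. The variant median in knockout was -0.0077 after median scaling. In rescue against knockout the HIST genes fallen were 2 after quantile normalization and 0 to 1 without single libraries, variants fallen were 1 after quantile normalization or with 2 groups and 0 to 1 without single libraries, and variants risen 0 to 1. In rescue against control 1 HIST gene rose with a mean signal of at least 5 as filter and 1 fell after quantile normalization. The HIST median was -0.096 after median scaling and -0.087 to 0.0055 without single libraries, and the variant median 0.041 after quantile normalization and 0.061 after median scaling. Signs turned after quantile normalization for HIST1H4C (0.028 in knockout, -0.069 in rescue against knockout), HIST1H4B (0.077, -0.11) and HIST1H4E (0.14, -0.16), and the cause was not tested.

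Replicate numbers are not stated to pair the libraries, and deviations of same-numbered libraries correlated at -0.011, -0.048 and 0.10 across 12734 genes. With the replicate number as a block, 52 HIST genes fell and 2 rose in knockout, 53 rose and 1 fell in rescue against knockout, and 1 rose in rescue against control. The block also brought calls in knockout for HIST1H2BI (limma adjusted p = 0.035) and H2AFZ (limma adjusted p = 0.0442). Reads per library limit HIST3H3 and the 3 rows too low to test.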
